A study of Homo sapiens with 6 samples.

Results

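The genes described here encode protein kinase A (PKA) and its protein inhibitors: 3 inhibitor genes (PKIA, PKIB and PKIG), 3 catalytic genes (PRKACA, PRKACB and PRKX) and 4 regulatory genes (PRKAR1A, PRKAR1B, PRKAR2A and PRKAR2B). These 10 genes were taken by symbol from the 30960 genes of the deposited table, and each matched 1 row. The RNA came from HEK293, a human embryonic kidney cell line, transfected by lipofection with 158 ng of plasmid per square centimetre and harvested at 48 h. The PKI group expressed a GFP fusion of PKI1-24, and the control group, inPKI, expressed a GFP fusion of inPKI1-24. All 6 libraries, lettered A to C in each group, therefore came from cells given a GFP fusion. Neither untransfected cells nor GFP alone was analysed here. The design text calls the 3 libraries of a group triplicates, without saying whether they came from separate cultures or days, so p-values measure only the spread between these libraries, which may be technical.

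PKA is the main cAMP-dependent kinase. At rest its catalytic subunits are held inactive by dimers of regulatory subunits, and cAMP binding to the regulatory subunits releases catalytic activity. PKI proteins are small heat-stable inhibitors that occupy the substrate site of the released catalytic subunit, and the full-length proteins also carry a nuclear export signal that takes the catalytic subunit out of the nucleus. The amino-terminal stretch of PKI holds the pseudosubstrate that blocks the kinase. Among the nuclear targets of PKA is the factor CREB, which binds the cAMP response element, CRE.

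Promoter sequences are shown for the CRE and its short core at these genes, because CREB is a target of PKA. RefSeq windows on GRCh38.p14, 250 bases before to 50 after each annotated start, were found for 8 of the 10 genes, in 25 windows that partly overlap. PKIA and PRKX had no window, so they were not searched. The full CRE (TGACGTCA, its own reverse complement) was found in 2 overlapping windows of PRKAR1A, which share 1 site, against 1.85% of the 35116 windows in the table. The core (TGACG on either strand, also counted within a full CRE) was found in 11 of the 25 windows and in 6 genes, against 24.6% of all windows. The windows of PKIG and PRKAR2B had neither, which says only that these letters are not in those windows. A match describes letters and not a bound site. The PRKAR1A site lies 49 bases before 1 annotated start and just after another, on chr17:68512370-68512399, plus strand. For the other genes with a core match before a start, the match nearest to that start is given: PRKACA on chr19:14117748-14117777, minus strand, PRKACB on chr1:84077938-84077967, plus strand, PKIB on chr6:122471853-122471882, plus strand, PRKAR2A on chr3:48847860-48847889, minus strand, and PRKAR1B on chr7:713089-713118, minus strand. Each line reads 5′ to 3′ along the gene, and capitals mark the CRE or its core.
PRKAR1A: gcgaggcgcatTGACGTCAgtagccgaacg
PRKACA: ggctgcgggggCGTCAcagacagcggcaga
PRKACB: ccgggcctgcgCGTCActtccggcgcgcgc
PKIB: cctcagcctcgCGTCActtccttccaggcc
PRKAR2A: gcggtggcgtgCGTCAcaaccaggacgcct
PRKAR1B: tgggttaggacCGTCAccaagaggctcctc

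Levels are deposited CPM, that is read counts scaled to library size, from which whole reads could be recovered. The recovered reads numbered 17244715 to 23589438 per library, and the 10 genes took 0.0563% to 0.0610% of them. PKI A and PKI C stood apart from the other 4 libraries. The chi-square per gene between pairs of libraries, which is 1 for counting error alone, averaged 2.32 to 4.79 among the 3 inPKI libraries and PKI B, and 13.7 to 42.5 for pairs with PKI A or PKI C. HEK293 markers were present, with 6 of 7 at 1 CPM or more in every library and a summed level of 879 to 900 CPM in inPKI and 781 to 889 CPM in PKI. Most of the HEK293 sum was VIM. Of 5 leukocyte markers 0 reached 1 CPM in every library, and CD3E was at 0 in all 6. The hepatocyte and muscle lists also had 0 such markers. In contrast, 3 of 5 keratinocyte, 2 of 5 fibroblast and 1 of 4 neuron markers reached 1 CPM in every library. The keratinocyte markers summed to 28.0 to 52.3 CPM in inPKI and 25.6 to 29.9 CPM in PKI. The marker lists alone therefore do not identify the cells.

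PKIA, the alpha inhibitor gene, was the 1 member whose difference between the groups passed the test. It measured 9.05, 11.3 and 8.65 CPM in inPKI A, B and C, and 43.2, 42.3 and 46.1 CPM in PKI A, B and C. The PKI libraries are all far above the inPKI libraries, with no overlap, and the spread within a group is small beside the gap. These are 209 to 311 reads in the control and 1053 to 1271 reads in the PKI group. The mean went from 9.68 ± 1.46 to 43.9 ± 1.96 CPM (SD, n = 3 each), a ratio of 4.53. On the log2(CPM + 1) scale, on which limma was fitted to all 14275 genes with at least 1 CPM in at least 3 libraries, PKIA rose by 2.08 ± 0.088 (SE; 95% interval 1.89 to 2.27; limma adjusted p = 5.64e-09, against a threshold of 0.05). Gene counts cannot tell a transcript of the plasmid from one of the chromosomal gene, which lies at chromosome 8, 78516139 to 78605267 (GRCh38), so the rise is that of all reads assigned to PKIA. With PKI A and PKI C left out, an alternative chosen after seeing the data, the rise was 2.03, for PKI B as the 1 PKI library. PKIA-AS1, the antisense gene at this locus, had 0 to 2 reads in every library.

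The other inhibitor genes showed no difference past the threshold. PKIB, the beta form, measured 8.43, 6.42 and 7.16 CPM in inPKI A, B and C, against 6.46, 8.22 and 5.07 CPM in PKI A, B and C. Its highest and lowest values fell in inPKI A and PKI C, and the groups overlapped over most of their range. PKIG, the gamma form, measured 9.09, 9.34 and 9.18 CPM in inPKI and 8.05, 9.15 and 8.49 CPM in PKI, in the same order of libraries. The PKI B value lay within the inPKI range and the other PKI values below it. The log2 change was -0.15 for PKIB (95% interval -0.45 to 0.15; limma adjusted p = 0.653) and -0.095 for PKIG (-0.28 to 0.093; limma adjusted p = 0.652). As ratios on the scale of CPM + 1, the interval of PKIB runs from 0.734 to 1.11 and that of PKIG from 0.822 to 1.07.

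**Figure D1:**
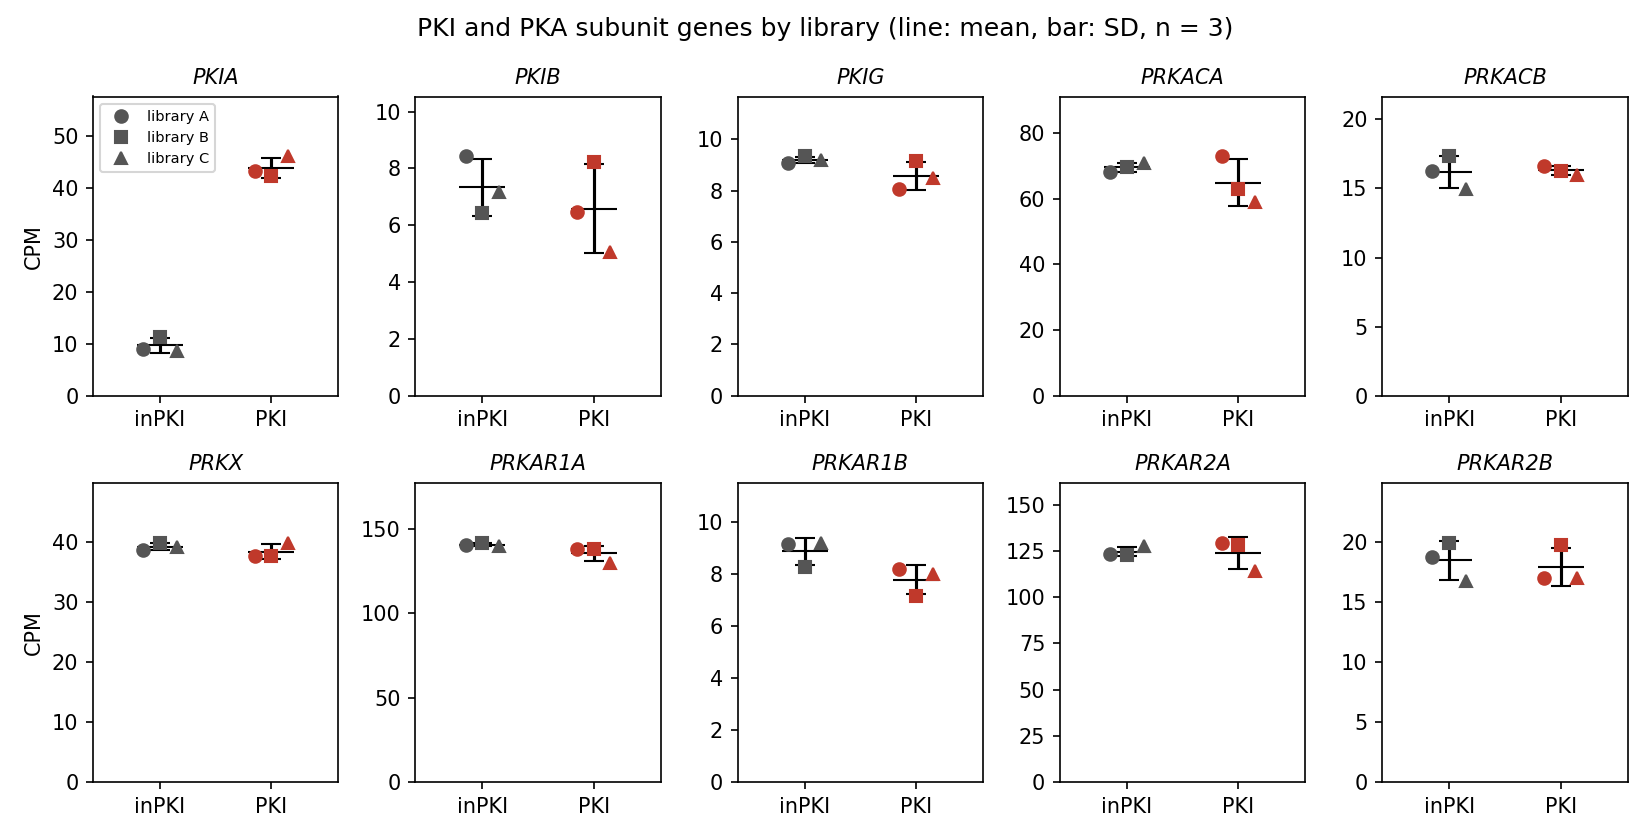
Each panel plots CPM (linear axis from 0) of 1 gene by group, with a marker shape for libraries A, B and C, a line for the mean and a bar for the SD (n = 3). PKIA goes from 8.65 to 11.3 CPM in inPKI to 42.3 to 46.1 CPM in PKI, while 7 of the other 9 genes overlap between the groups.

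The catalytic genes showed no difference past the threshold. PRKACA, which encodes the alpha catalytic subunit, measured 68.1, 69.5 and 70.9 CPM in inPKI A, B and C, against 72.9, 62.8 and 59.0 CPM in PKI A, B and C. The inPKI values all lie between PKI A and PKI B, so the PKI group spans both sides of the control. PRKACA had an SD of 1.38 CPM in inPKI, near the 1.65 CPM that counting error alone gives, and of 7.18 CPM in PKI, against 1.56 CPM from counting. PRKACB, the beta catalytic gene, measured 16.3, 17.3 and 15.0 CPM in inPKI and 16.6, 16.3 and 16.0 CPM in PKI, with all PKI values inside the inPKI range. PRKX is an X-linked kinase of the same family that type I regulatory subunits and PKI also bind. It measured 38.8, 39.9 and 39.1 CPM in inPKI and 37.7, 37.6 and 39.9 CPM in PKI. PKI A and PKI B lay just below the lowest inPKI library and PKI C beside the highest. The log2 change was -0.10 ± 0.069 for PRKACA, 0.012 ± 0.076 for PRKACB and -0.031 ± 0.056 for PRKX (SE; limma adjusted p = 0.521, 0.962 and 0.841). Their 95% intervals allow ratios of 0.841 to 1.03 for PRKACA, 0.901 to 1.13 for PRKACB and 0.900 to 1.06 for PRKX. The retrogene PRKACG matched 0 rows by symbol, so it could not be analysed here. PRKX has near-identical relatives, of which the pseudogene PRKXP1 had 10 to 18 reads per library against 913 to 1131 for PRKX, and the counting could divide reads between such copies.

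Type I regulatory genes were the 2 members besides PKIA whose groups did not overlap. PRKAR1A, the ubiquitous type I alpha gene and the one with the full CRE printed above, measured 140.1, 141.8 and 139.8 CPM in inPKI A, B and C, against 137.8, 138.1 and 130.0 CPM in PKI A, B and C. All PKI values are below all inPKI values, by a small step in PKI A and PKI B and a larger one in PKI C. PRKAR1B, the type I beta gene, best known from brain, measured 9.17, 8.28 and 9.22 CPM in inPKI and 8.20, 7.15 and 8.0 CPM in PKI. Its PKI A value nearly touches inPKI B, and the lowest value is that of PKI B. The difference of the means was -3.73% for PRKAR1A and -12.4% for PRKAR1B, and neither passed the threshold: the log2 change was -0.055 (95% interval -0.16 to 0.054; limma adjusted p = 0.653) and -0.17 (-0.37 to 0.028; limma adjusted p = 0.435). Groups that did not overlap were found for 3 of the 10 members and for 19.7% of all genes tested, so the 2 lower genes stand near that background.

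Type II regulatory genes overlapped between the groups. PRKAR2A, the type II alpha gene, measured 123.5, 122.7 and 127.5 CPM in inPKI A, B and C, against 129.5, 128.1 and 114.2 CPM in PKI A, B and C. PKI A and PKI B are just above the inPKI libraries and PKI C is well below them. PRKAR2B, the type II beta gene, prominent in brain and fat, measured 18.7, 19.9 and 16.7 CPM in inPKI and 17.0, 19.7 and 17.0 CPM in PKI, all within the inPKI range. The log2 change was -0.0096 ± 0.058 for PRKAR2A and -0.041 ± 0.084 for PRKAR2B (SE; limma adjusted p = 0.959 and 0.859). The antisense gene PRKAR2A-AS1 had 15 to 45 reads per library, against 2611 to 3848 for PRKAR2A, and PRKAR1AP1, a PRKAR1A pseudogene, had 0 to 2.

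Over the 10 members, limma called 1 (PKIA, higher), against 0.126% of all genes tested. At an unadjusted p below 0.05 it was the same 1 member, against 13.7% of all genes. On the recovered reads edgeR called 1 member, against 0.0771% of all genes, and DESeq2 called 1, against 1.51%; PKIB, PKIG, PRKACB and PRKAR1B received no adjusted p from DESeq2. The other 9 members had log2 changes of -0.17 to 0.012, with 8 below 0 and 1 above (edgeR put PRKAR2A at 0.00025), and a median of -0.055, beside a median of -0.0074 over all genes tested, of which 52.6% lay below 0. PKI C, the shallowest library, held the lowest value of 4 members, and of 39.4% of all genes tested. Whether that library's departure bears on the members' small negative values was not tested, and without it 6 of the 9 changes were below 0. PKIB then stood at 0.00033 and PRKAR2A at 0.048, while PRKX (-0.058) and PRKAR1B (-0.19) lay further below 0 and PKIG (-0.090) hardly moved. In bulk RNA, fewer cells with a transcript and less transcript per cell cannot be told apart.

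**Figure D2:**
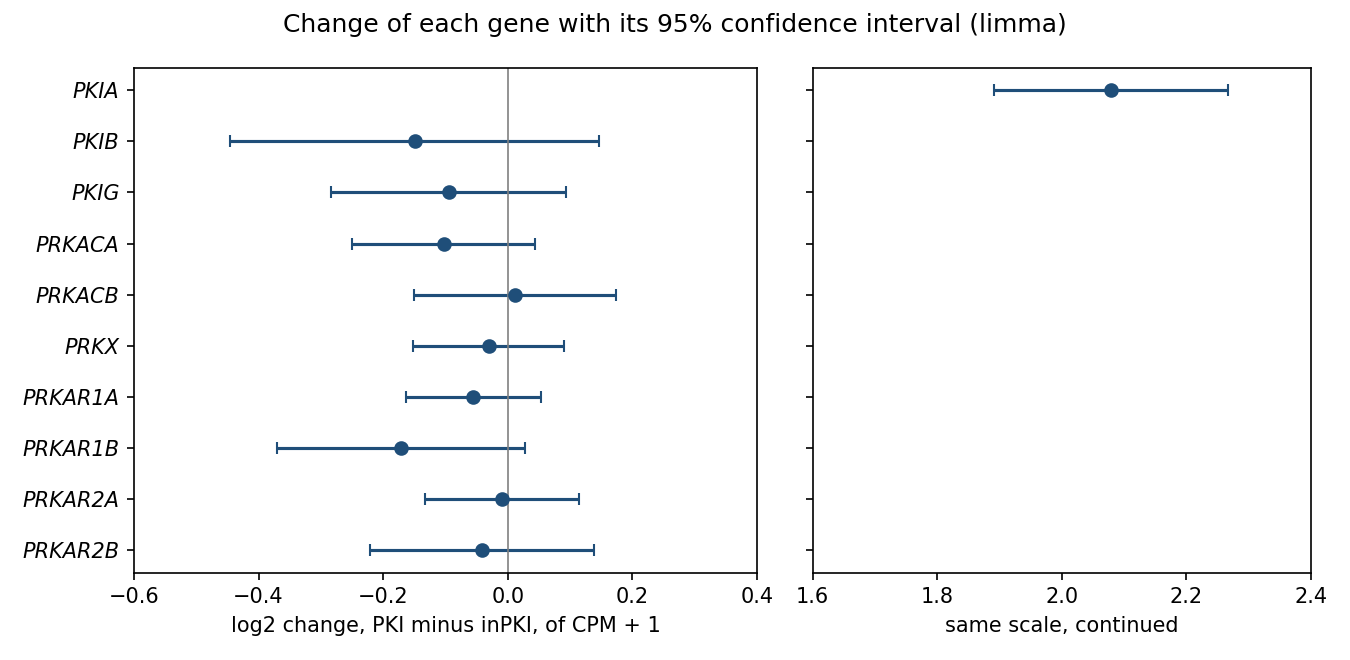
The log2 change of CPM + 1 (PKI minus inPKI) of each gene is plotted as a point with its 95% limma interval as a bar, on 1 scale continued over 2 panels. The intervals of the 9 genes other than PKIA all include 0, and that of PKIA runs from 1.89 to 2.27.

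The authors' deposited table gives values for the same genes, with the sign turned here to PKI over inPKI, since its log2 and linear fold changes differ in sign in all 30960 rows. In the authors' deposited table PKIA has a log2 fold change of 2.19 (adjusted p = 1.23e-41). The authors' deposited table gives each other member an adjusted p of 0.9999, with log2 fold changes from -0.18 (PRKAR1B) to 0.021 (PRKACB). Its mean signal is above 0 for 2069 genes that are at 0 in all 6 libraries, so libraries not analysed here enter its values.

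Levels of different genes were compared per kilobase of transcript, using the median length of each gene's coding transcripts in GENCODE 29. In inPKI the order from the top was PRKAR2A (199 ± 4.12 CPM per kb), PRKAR1A (136 ± 1.03), PRKACA (68.7 ± 1.36), PRKACB (8.46 ± 0.615), PKIG (7.73 ± 0.105), PRKX (6.51 ± 0.0990), PRKAR1B (6.08 ± 0.362), PKIA (5.58 ± 0.838), PKIB (4.96 ± 0.686) and PRKAR2B (4.92 ± 0.432; SD, n = 3 each). PRKAR2A, PRKAR1A and PRKACA were each clear of the next gene, whereas PRKACB overlapped PKIG, and the last 4 genes overlapped their neighbours in the order. In PKI cells PKIA took the 4th place at 25.3 ± 1.13 CPM per kb, above PRKACB and below PRKACA, with no overlap with either. Reads of a plasmid insert cannot be told from those of the gene in either group, and for such reads the length of the chromosomal transcript does not apply, so the PKIA values per kilobase, its shares and the inhibitor balance are those of all assigned reads. The order depends on the length used, because annotated coding transcripts of PRKAR2A run from 448 to 6471 bases. Short annotated transcripts lower the median, which was 627 bases for PRKAR2A, 1036 for PRKAR1A and 1011.5 for PRKACA. The levels of these genes per kilobase of median length, and the shares and balances built on them, can therefore be too high or shifted. Which transcripts these cells express was not measured here. Per kilobase of the longest coding transcript, PRKAR1A led in inPKI (32.5 ± 0.246 CPM per kb), before PRKACA (26.0 ± 0.514) and PRKAR2A (19.3 ± 0.399), and PKIA came last (2.33 ± 0.350). With either length these 3 genes held the top places.

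**Figure D3:**
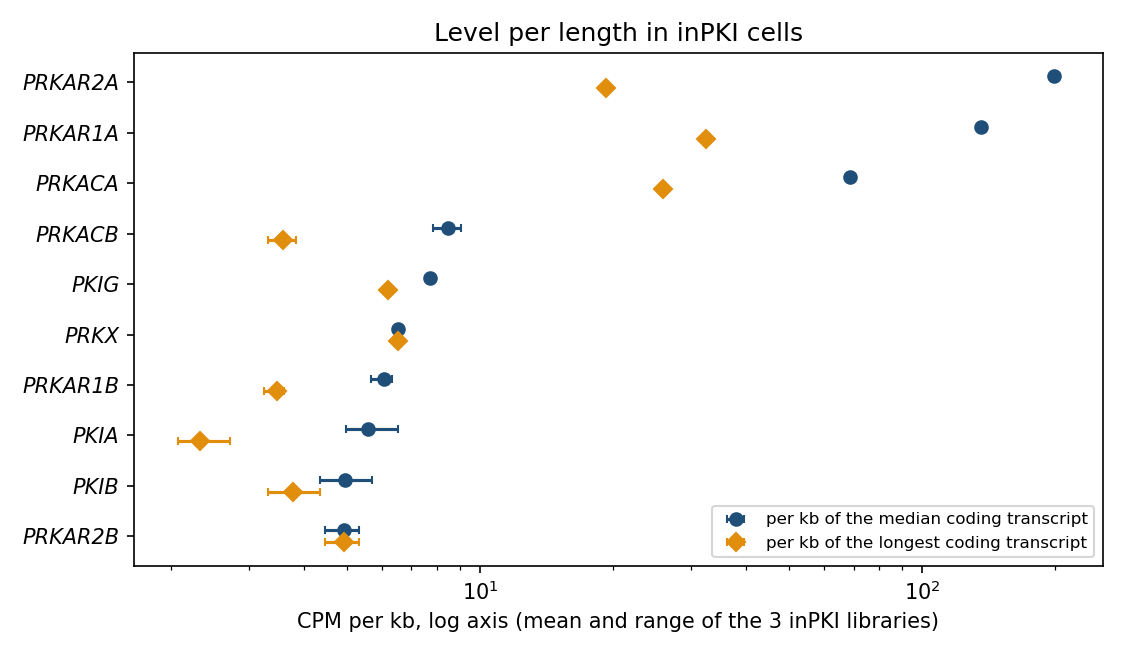
The level of each gene in inPKI is plotted on a log axis as CPM per kb, using the median (circles) or the longest (diamonds) coding transcript, as the mean and range of the 3 libraries. PRKAR2A moves from 199 to 19.3 CPM per kb between the 2 lengths, and PRKAR1A, PRKACA and PRKAR2A stay above the other 7 genes.

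The leading catalytic and regulatory genes held the same places within their class in both groups. Per kilobase of median length, PRKACA made 82.1% ± 0.836 of catalytic transcripts in inPKI and 81.1% ± 1.65 in PKI (SD, n = 3 each). PRKAR2A made 57.5% ± 0.662 and 58.4% ± 0.907 of regulatory transcripts, and PRKAR1A 39.3% ± 0.594 and 38.6% ± 0.769. Which regulatory gene leads depends on the length: with the longest transcripts PRKAR1A made 54.0% ± 0.302 and PRKAR2A 32.0% ± 0.697 in inPKI, and with no length 48.1% ± 0.385 and 42.6% ± 0.801. Among inhibitor transcripts, per kilobase of median length, PKIG led in inPKI with 42.3% ± 1.47, before PKIA with 30.5% ± 3.84, and PKIA led in PKI with 68.5% ± 3.42, with PKIG at 19.5% ± 0.867. With the longest transcripts PKIA went from 18.9% ± 2.79 to 53.6% ± 3.87 of inhibitor transcripts. With no length PKIA (36.8% ± 4.35) and PKIG (35.1% ± 1.40) were within their spread of each other in inPKI, and PKIA made 74.3% ± 3.22 in PKI.

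The balance of the classes was taken in each library as a ratio of summed CPM per kb and compared by an exact 2-sided permutation test, a test that with 3 libraries against 3 cannot go below p = 0.1. Catalytic to regulatory transcripts stood at 0.240, 0.246 and 0.242 in inPKI A, B and C, against 0.249, 0.221 and 0.231 in PKI A, B and C. PKI A is the highest and PKI B the lowest of all 6 libraries, so the groups overlap (log2 difference -0.055, exact p = 0.4, 0.6 adjusted over the 6 balances). The level of this ratio depends on the length, at 0.591 to 0.604 in inPKI with the longest transcripts and 0.423 to 0.433 with no length. Inhibitor to catalytic transcripts stood at 0.225, 0.222 and 0.208 in inPKI and at 0.414, 0.489 and 0.506 in PKI. Here the groups are apart, and the mean ratio went from 0.218 ± 0.00931 to 0.470 ± 0.0488 (SD, n = 3 each), a ratio of 2.15 between the groups at the smallest p this permutation test can give (exact p = 0.1, 0.6 adjusted). This difference is made of reads assigned to PKIA: PKIB and PKIG together stood at 0.152 ± 0.00918 of catalytic transcripts in inPKI and 0.148 ± 0.0225 in PKI (exact p = 0.8, 0.8 adjusted). Its size moves with the length used, from a log2 difference of 1.10 to 0.76 with the longest transcripts and 1.24 with no length.

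Type I to type II regulatory transcripts stood at 0.70, 0.709 and 0.680 in inPKI and 0.657, 0.660 and 0.701 in PKI. PKI A and PKI B are below all inPKI libraries and PKI C is among them (log2 difference -0.050, exact p = 0.3, 0.6 adjusted). Which type is more abundant turns with the length, since the inPKI ratio was 1.48 to 1.49 with the longest transcripts and 1.03 to 1.05 with no length. The PRKACA to PRKACB ratio averaged 8.16 ± 0.712 in inPKI and 7.53 ± 0.690 in PKI (SD, n = 3 each; exact p = 0.4, 0.6 adjusted). The PKIB to PKIG ratio averaged 0.642 ± 0.0973 and 0.617 ± 0.123 (exact p = 0.8, 0.8 adjusted). Both pairs of groups overlapped. With 3 libraries a group this permutation test could not pass 0.05 for any balance, so a missed threshold says nothing about likeness. With PKI A and PKI C left out the catalytic to regulatory difference was -0.13 and that of PKIB and PKIG to catalytic transcripts 0.19, both for 1 PKI library.

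**Figure D4:**
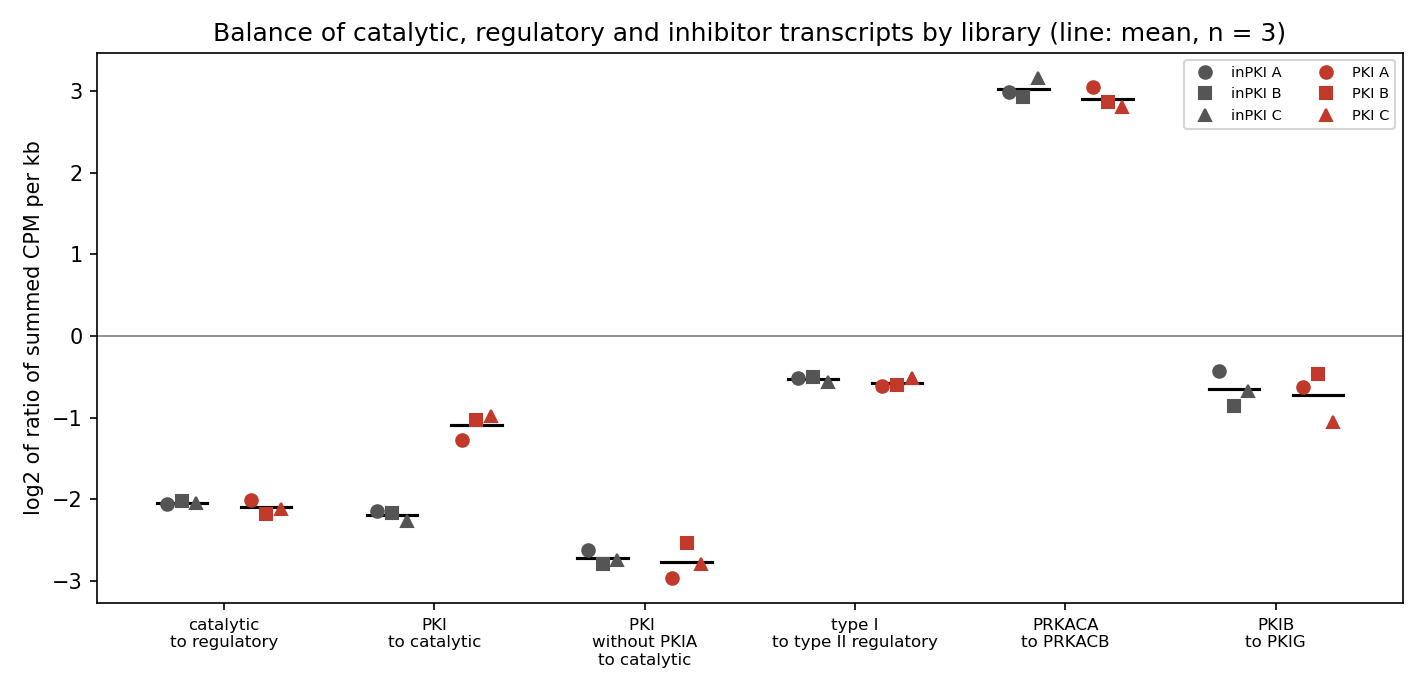
The log2 ratio of summed CPM per kb (median transcript length) is plotted for 6 balances in each library, with lines for group means. The inhibitor to catalytic balance is the 1 balance whose groups do not overlap, at 0.208 to 0.225 in inPKI and 0.414 to 0.506 in PKI as plain ratios.

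The genes with the most similar profile over the 6 libraries were found by Pearson's r of log2(CPM + 1), as a description, since all points share their libraries. For PKIA they were IL11, GFPT2 and NXPE3, each with r = 0.991, and 87 genes exceeded 0.95. The PKIA values fall into 2 clusters, so a high r needs little beyond a gap between the groups. IL11 averaged 0.270 ± 0.0508 CPM in inPKI and 1.83 ± 0.315 CPM in PKI, GFPT2 19.4 ± 0.143 and 22.1 ± 0.194 CPM, and NXPE3 31.0 ± 0.149 and 32.9 ± 0.281 CPM (SD, n = 3 each). IL11 is near the floor in inPKI and passed the filter of 1 CPM only through the PKI libraries, so its place here rests partly on that filter. For PRKAR1A the nearest gene was COX8A (r = 0.999), and 463 genes exceeded 0.95, the most of any member. The nearest genes were CLDN12 for PKIB (0.998), APOC1 for PKIG (0.992), ALG3 for PRKACA (0.998), GPM6A for PRKACB (0.989), ZNF707 for PRKX (0.993), PHLDB3 for PRKAR1B (0.994), CHMP1A for PRKAR2A (0.996) and IKBIP for PRKAR2B (0.996).

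The rest of the pathway was read from lists chosen with earlier results of these data known, by counts and medians alone. Over all genes tested, 0.126% passed in limma, 0.0771% in edgeR and 1.51% in DESeq2, and 13.7% had an unadjusted limma p below 0.05. Genes without an adjusted p from DESeq2 count as not called there, both in the lists and over all genes. Of 22 tested genes of A-kinase anchoring proteins, which tether regulatory subunits to sites in the cell, 0 passed in limma or edgeR, 5 had an unadjusted p below 0.05 and DESeq2 called 3, with a median log2 change of 0.075. AKAP13 had the smallest p, at 43.3 ± 0.706 CPM in the control and 52.3 ± 3.32 CPM with PKI (SD, n = 3 each; limma adjusted p = 0.109; DESeq2 adjusted p = 0.0128). The other DESeq2 calls were AKAP11 and AKAP12 (DESeq2 adjusted p = 0.0451 and 0.00262; limma adjusted p = 0.145 and 0.110), named after their values were seen.

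Upstream of PKA, 0 of 8 tested genes of cAMP synthesis and 0 of 11 phosphodiesterase genes passed in limma, edgeR or DESeq2, with 3 of each at an unadjusted p below 0.05 and medians of 0.11 and 0.078. The smallest p values were those of the adenylyl cyclase gene ADCY1, at 35.4 ± 2.92 and 41.1 ± 0.596 CPM in inPKI and PKI (SD, n = 3 each; limma adjusted p = 0.189), and of the phosphodiesterase gene PDE10A, at 6.47 ± 0.375 and 8.53 ± 0.482 CPM (limma adjusted p = 0.157). PDE10A received no adjusted p from DESeq2, so that tool could not call it. Of 6 other cAMP sensors 0 passed in any of the 3 tools and 0 had an unadjusted p below 0.05, with a median of 0.080, and the channel gene HCN3 had the smallest p (limma adjusted p = 0.369). HCN3 likewise received no adjusted p from DESeq2.

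Among 9 tested direct regulators of the catalytic subunit, 0 passed in limma, edgeR or DESeq2 and 3 had an unadjusted p below 0.05, with a median of 0.00083. GPR161, an orphan receptor that couples to cAMP and also anchors PKA, had the smallest p, at 16.0 ± 1.2 CPM in the control and 19.2 ± 0.680 CPM with PKI (SD, n = 3 each; limma adjusted p = 0.183). Of 19 tested PKA substrates and transcription partners 0 passed in the 3 tools and 3 had an unadjusted p below 0.05, with a median of 0.025, led by the calcium release channel gene RYR2 (3.46 ± 0.341 and 4.92 ± 0.534 CPM; limma adjusted p = 0.172). RYR2 received no adjusted p from DESeq2, so that tool could not call it. Of 23 tested CREB-responsive genes 1 rose in limma and 0 fell, with 6 at an unadjusted p below 0.05 and a median of 0.045. That gene was EGR1, an immediate early factor that also follows ERK and serum signals, at 14.3 ± 2.4 CPM in the control and 28.4 ± 4.20 CPM with PKI (SD, n = 3 each; log2 change 0.95 ± 0.11, SE; limma adjusted p = 0.00198). EGR1 was also called by edgeR (edgeR adjusted p = 0.00527) and by DESeq2 (DESeq2 adjusted p = 1.78e-12). Its limma call was lost with no filter on low values and in limma without a trend (limma adjusted p up to 0.160). DESeq2 also called DUSP1, a phosphatase of MAP kinases, at 33.8 ± 2.51 and 42.7 ± 3.98 CPM (DESeq2 adjusted p = 0.00323; limma adjusted p = 0.110). The medians of these lists lay between 0.00083 and 0.11, beside -0.0074 for all genes and -0.055 for the 9 members other than PKIA. Some lists share genes, and whether these medians differ was not tested.

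The other loci of the members, by identifier in GENCODE 29 on GRCh38, are as follows. PKIB lies at chromosome 6, 122471917 to 122726373, and PKIG at chromosome 20, 44531785 to 44624247. PRKACA lies at chromosome 19, 14091688 to 14118084, PRKACB at chromosome 1, 84078062 to 84238498, and PRKX at chromosome X, 3604370 to 3713608. Of the regulatory genes, PRKAR1A lies at chromosome 17, 68511780 to 68551319, PRKAR2A at chromosome 3, 48744597 to 48847846, and PRKAR1B and PRKAR2B both on chromosome 7, at 549197 to 727650 and 107044649 to 107161811. All 10 are annotated as protein-coding genes.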

How the data were processed

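The authors deposited CPM for 30960 genes in 6 libraries, by the table's name from RSEM with TMM scaling. Per the submitters' processing notes the tools were cutadapt 1.14, STAR 2.5.2b, RSEM 1.3.0 and DESeq2 1.20.0 on hg19, with no role or setting. Reads were recovered by dividing each column by its smallest value above 0, and 100% of values were whole within 0.01 reads; they may be rounded estimates. How strand and multiply mapped reads were counted is not given in the sources used here. Per the file headers, the authors' comparison table holds a mean signal, a log2 fold change with its error, a Wald score and p-values.

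Values were log2(CPM + 1), which understates changes of low genes, for 14275 genes with 1 CPM in at least 3 libraries. They were fitted with limma 3.58.1 (R 4.3.3, trended empirical Bayes, 2-sided, 95% intervals) with Benjamini-Hochberg adjustment over all genes and a threshold of 0.05. The fitting code was tested on simulated data with the same extra spread in all 6 libraries, so that test did not cover libraries that stand apart as PKI A and PKI C do. edgeR 4.0.16 and DESeq2 1.42.0 were run on recovered reads. Gene sequences and coordinates are annotation on GRCh38, not the authors' alignment. The members, the lists and the naming rule were chosen with earlier results of these data known. The rule names all members, each list's called genes and its smallest p, and for each member the gene of highest r (for PKIA 3). Counting error sets a lower bound on the error of a value, and PCR duplicates cannot be told apart. Alternatives were pseudocounts, filters, rescaling, a replicate block, limma without a trend, other tools, transcript lengths, PRKX left out and each library left out; 1 more, without PKI A and PKI C, was chosen after seeing the data. Library letters were checked for pairing (correlation of same-letter deviations 0.014 to 0.028) and were not used as pairs. Figures were drawn with matplotlib 3.10.9.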

Additional observations from a re-analysis of the deposited data

How the results depend on the processing

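PKIA was the 1 member called in each of 17 alternatives, with log2 changes of 1.74 to 2.19 and a limma, edgeR or DESeq2 adjusted p of at most 0.000591. The other 9 members gave 153 values, of which 4 had no adjusted p and could not pass (PKIB, PKIG, PRKACB and PRKAR1B in DESeq2). Of the 153 values 0 passed the threshold (lowest adjusted p 0.185) and 10 changed sign. These were PKIB without PKI C (0.00033), PRKACB without inPKI C (-0.040) or PKI A (-0.0017), PRKAR2A without inPKI C (0.0071), without PKI C (0.048) and in edgeR (0.00025), PRKAR2B without inPKI B (0.013), and, with PKI A and PKI C left out, PKIB (0.15), PRKAR2A (0.040) and PRKAR2B (0.094). With 1 library left out the changes ran from -0.30 to 0.00033 for PKIB, -0.040 to 0.059 for PRKACB, -0.042 to 0.048 for PRKAR2A and -0.11 to 0.013 for PRKAR2B. Over all genes 18 were called, against 4 with no filter on low values, 4 without a trend, 11 after rescaling to an equal sum, 11 by edgeR, 216 by DESeq2, 49 with PKI A and PKI C left out, and 9 (without inPKI B) to 114 (without PKI B) with 1 library left out. The lists' counts are read against these backgrounds; the cause was not tested. With a replicate block the count was 124 and PKIA was the 1 member called (2.08). The letters share only a name: same-letter correlations were 0.014 to 0.028, though each library correlated best with its own letter, a hint from the data and not from the design. The inhibitor to catalytic balance was 0.76 with the longest transcripts and 1.24 with no length, against 1.10. The balance of PKIB and PKIG to catalytic turned from -0.044 to 0.0045 without inPKI A and 0.056 without PKI A. That of PKIB to PKIG turned from -0.068 to 0.046 without inPKI A, 0.10 without PKI C and 0.18 without both PKI A and PKI C. With PKI A and PKI C left out the catalytic to regulatory balance was -0.13 and that of PKIB and PKIG to catalytic 0.19, against -0.055 and -0.044. PKI then is 1 library, assumed to vary like inPKI. PKIB had the widest interval of the 9 and 116 reads in PKI C, and its SD in PKI was 1.58 CPM against 0.494 CPM from counting.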
